A study of Drosophila melanogaster with 12 samples.

Results

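Chromatin of Drosophila melanogaster ovaries carrying GFP-tagged Sfmbt was compared with untagged ovary chromatin, both precipitated with the same anti-GFP antibody, at each of the 352 summit rows of the deposited table of Pho and Sfmbt binding sites. A summit is the position of highest signal within a bound region. All 352 rows were kept, so the rows described here are the same 352 that hold every ChIP value of the series. They stand for 351 positions, because the summit of the mesoderm gene twi at 2R:23046215 is listed on 2 rows with the same binding values, and the authors assigned them to 289 genes. The comparison asks how much of the anti-GFP signal at these sites depends on the tag.

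The series holds 12 samples in 5 groups, and 4 of these samples belong to the compared groups. Per the labels, the tagged group was whole ovaries of flies with a GFP-Sfmbt knock-in and the control group was whole ovaries of the untagged Oregon-R strain, with 2 biological replicates each. Females were 2 days old and ovaries were fixed for 10 min in 2% paraformaldehyde before sonication and precipitation with a rabbit anti-GFP antibody. A further 2 samples held untagged yw ovary chromatin precipitated with rabbit anti-Pho, and 6 held RNA of ovaries in which the nanos-Gal4 driver, active in germ cells, expressed a hairpin against Sfmbt (TRiP.HMS00473) or against mCherry, a protein that flies lack. The tagged and untagged flies differ in strain as well as in the tag, and effects of strain and tag cannot be told apart. Whole ovaries contain germ cells and somatic follicle cells, and in such bulk samples fewer cells of a type and less signal per cell cannot be told apart. The deposited table gives 1 value per summit and group, with no separate replicates, so no test between tagged and untagged chromatin was possible and differences between them are descriptions.

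Sfmbt is a subunit of the Pho repressive complex, PhoRC. Its partner Pho reads a DNA motif within Polycomb response elements, and Sfmbt, which binds no specific DNA sequence by itself, links Pho to other Polycomb proteins. Such elements keep HOX genes and other developmental regulators silent where they are not needed, and many lie far from the gene they control or within its introns.

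The signal was higher in tagged than in untagged chromatin at most summits. The authors listed these sites as bound and ranked them with these same columns, so a tagged excess is in part given by the selection. No other regions were available beside them. Values are in RPM, reads scaled by the authors to a common library total. GFP-Sfmbt chromatin ranged from 0.244 to 7.72 RPM with a median of 0.886, and untagged chromatin ranged from 0 to 0.924 RPM with a median of 0.336. The ratio of tagged to untagged signal had a median of 2.73 over the 352 summits, with a 95% order-statistic interval of 2.58 to 3.15 that treats summits as independent, and its quartiles were 1.77 and 5.11. A ratio of 2 or more was reached at 238 summits (67.6%), of 4 or more at 114 (32.4%) and of 8 or more at 49 (13.9%). At 21 summits the untagged value was the higher one. The difference, tagged minus untagged, had a median of 0.526 RPM and ran from −0.385 to 7.30 RPM.

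**Figure D1:**
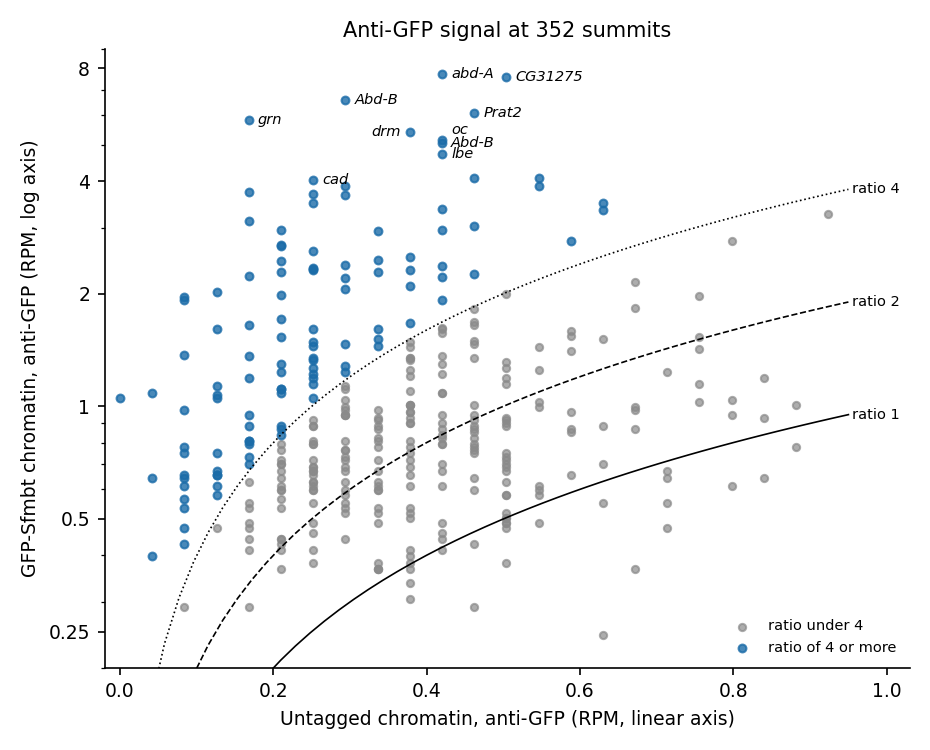
Anti-GFP signal in GFP-Sfmbt chromatin (vertical axis, RPM, log scale) against untagged chromatin (horizontal axis, RPM, linear scale) at 352 summits, 1 point per summit. Lines mark ratios of 1, 2 and 4, and points at a ratio of 4 or more are blue. The point without untagged signal stands at 0, and the floor of 3 steps sets only its colour. The untagged values stay below 0.924 RPM while the tagged values reach 7.72 RPM, and the labelled genes hold the 10 largest differences.

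The precision of a ratio was set by the untagged value. Every untagged value was a whole multiple of a step of 0.0420 RPM and every GFP-Sfmbt value a whole multiple of 0.0153 RPM, as would arise if 1 step were 1 read. Untagged values held 0 to 22 steps with a median of 8, whereas GFP-Sfmbt values held 16 to 505 steps with a median of 58. Under 10 untagged steps lay behind 219 of the 352 ratios, and under 3 steps behind 18. Exact 95% intervals for the ratio (Clopper-Pearson, conditional on the sum of steps) cover counting error only and take each step as 1 read. Their upper bound was 5.14 times the lower bound at the median, 32.7 times at summits with 2 untagged steps and 2.94 times at summits with 20. The lower bound was above 1 at 228 summits and above 2 at 94, and the upper bound was below 1 at 1 summit, in CG13917. Untagged steps varied more between summits than counting alone gives, with a variance 2.03 times the mean. Summits with low untagged values also had the high ratios, which share that value as their denominator: with summits divided into 4 equal classes by untagged RPM, the median ratio was 5.29, 3.15, 2.17 and 1.501 from the lowest class to the highest. At the 133 summits with 10 or more untagged steps the median ratio was 1.82.

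The strongest tagged signals stood at HOX and other developmental regulators. The summit of abd-A, a HOX gene of the abdomen, at 3R:16869537 (build BDGP6) had the highest GFP-Sfmbt value of all, 7.72 against 0.420 RPM untagged, a ratio of 18.4 (interval 9.91 to 38.6). It lies in an intron of the annotation 13195 bases from the nearest annotated gene start, that of mir-iab-8. The second highest, at 3R:16764172, is assigned to CG31275 and had 7.61 against 0.504 RPM, a ratio of 15.1 (8.57 to 29.4). Its nearest annotated start is that of lncRNA:bxd, a noncoding RNA of the region that controls Ubx, at 9017 bases. Abd-B, the most posterior HOX gene, had 6.59 against 0.294 RPM at 3R:16948777, a ratio of 22.4 (10.8 to 56.1).

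Beyond the HOX genes, the GATA factor gene grn had 5.82 against 0.168 RPM at 3R:8181602, 158 bases from its start, and the highest ratio of the table, 34.7, on 4 untagged steps (interval 13.4 to 128). At Prat2, which encodes an enzyme of purine synthesis, 6.10 against 0.462 RPM stood at 3L:6904142, a ratio of 13.2, and this summit lies between genes, 10734 bases from the Prat2 start. Other summits among the 10 largest differences belong to drm, a zinc finger gene of gut development (ratio 14.3), oc, a homeobox gene of the head (12.3), a second Abd-B summit (12.045), lbe, a homeobox gene of muscle and heart (11.2), and cad, the homeobox gene of posterior identity (15.95). drm, lbe and cad were bound within 203 bases of their starts, and the oc summit at X:8624970 lay 25711 bases from the oc start.

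Among summits with 10 or more untagged steps the 10 highest ratios included 3 more genes and a further oc summit. The wing regulator vg had a ratio of 8.80 (4.06 against 0.462 RPM, 105 bases from its start), the neuronal homeobox gene unc-4 had 8.04 (3.38 against 0.420 RPM, 316 bases) and the other oc summit, at X:8650895, had 7.47 (4.08 against 0.546 RPM, 214 bases). The remaining gene, dhd, encodes a thioredoxin of the female germ line that acts on sperm chromatin at fertilisation. Its summit at X:5312233 lies in an exon 62 bases from its start, with 3.88 against 0.546 RPM and a ratio of 7.11 (4.08 to 13.5). It is well expressed in the ovary, with 4285 TPM (a length-corrected share of transcripts, computed here from the deposited counts) in mCherry RNAi.

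Several of the highest ratios rest on almost no untagged signal. CG16989 had 1.08 RPM against 1 untagged step, a ratio of 25.8 with an interval of 4.49 to 1035. corto, a chromatin protein gene, Ubx, the HOX gene of the posterior thorax, and the GATA gene srp each had 2 untagged steps and ratios of 23.3, 22.9 and 16.4. Their intervals began at 6.32, 6.22 and 4.40, so a ratio above 4 was within counting precision for these genes while the size above it was not. One summit of CG9380, at 2R:25285493, had 1.05 RPM and no untagged signal. Taking 3 steps as the floor for that summit gave a ratio of 8.37, a value that depends on the floor and is not a lower bound.

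**Figure D2:**
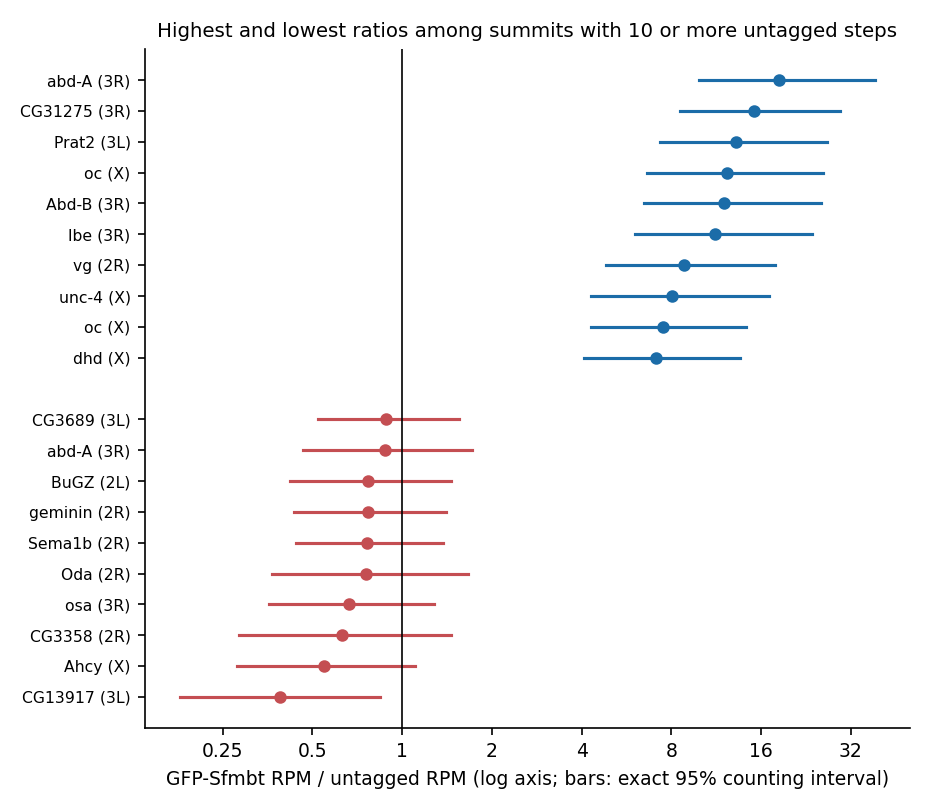
Ratio of GFP-Sfmbt to untagged RPM (horizontal log axis) for the 10 highest and the 10 lowest ratios among summits with 10 or more untagged steps, 1 line per summit, with bars for the exact 95% counting interval. The intervals of the upper summits begin at 4.08 or higher, and those of the lower summits all include 1 except that of CG13917, which ends at 0.843.

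At the lower end, tagged and untagged chromatin could hardly be separated. CG13917 at 3L:1579821 had 0.244 RPM tagged and 0.630 RPM untagged, a ratio of 0.388 (interval 0.180 to 0.843). Among summits with 10 or more untagged steps the next 9 had ratios of 0.546 to 0.884 and intervals that include 1. They were Ahcy, which encodes adenosylhomocysteinase (0.546), CG3358 (0.629), osa, a subunit gene of the Brahma remodelling complex (0.664), Oda, the antizyme of ornithine decarboxylase (0.758), the semaphorin gene Sema1b (0.764), the replication licensing inhibitor geminin (0.766), the spindle factor gene BuGZ (0.771), an abd-A summit (0.873) and CG3689 (0.884). That abd-A summit, at 3R:16857876, had 0.550 RPM tagged and 0.630 RPM untagged, on the same arm as the abd-A summit with the highest tagged signal. Of these 10 summits, 6 lay within 500 bases of an annotated gene start.

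The bithorax complex, the HOX cluster of Ubx, abd-A and Abd-B on 3R, held strong and weak summits side by side. Of its 16 summits 10 had a ratio of 4 or more, and the values ran from 0.873 to 22.9. Within Ubx the summit 31468 bases inside the gene from its start had a ratio of 22.9 and the one 18776 bases inside had 2.49. The CG31275 summit followed 29.7 kb upstream of Ubx. The 5 summits assigned to abd-A had ratios of 13.2, 9.28, 2.61, 0.873 and 18.4 in order along 3R, and the second of these lies 187 bases from the abd-A start. Between the weakest and the strongest of them the tagged value went from 0.550 to 7.72 RPM and the untagged value from 0.630 to 0.420 RPM. The 8 summits of Abd-B ran from 2.61 to 22.4 with a median of 8.66, and the pair nearest to its annotated start, within 2641 bases, had 13.3 and 12.9. Pho signal in the complex ranged from 1.88 RPM at an Abd-B summit with a ratio of 2.73 to 125 RPM at the abd-A summit with the highest tagged value.

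**Figure D3:**
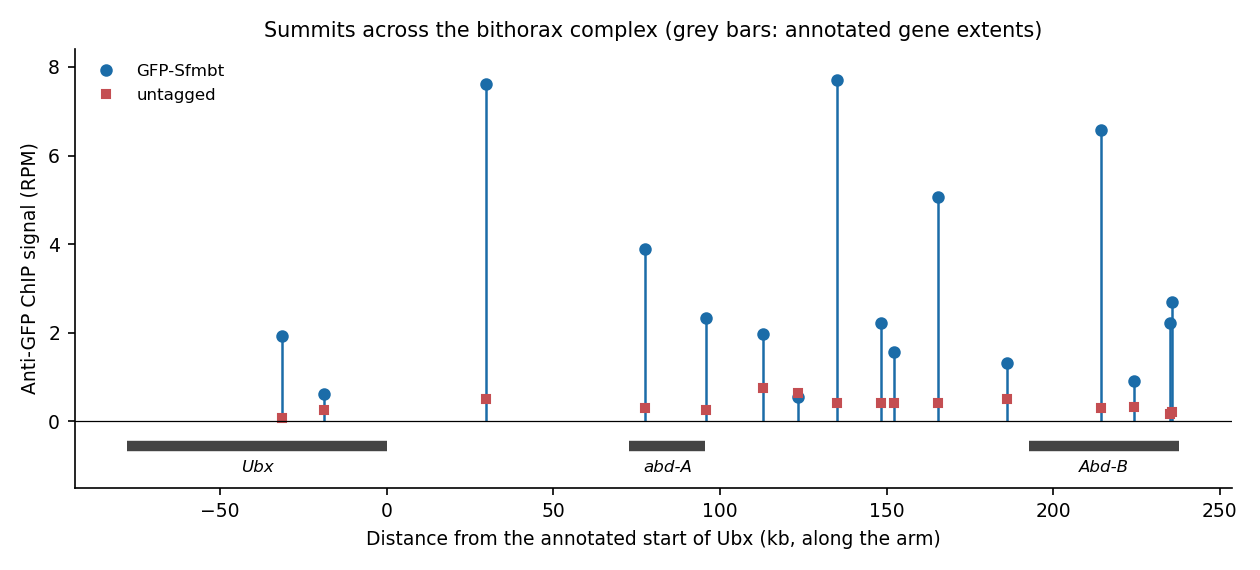
Signal along the bithorax complex as distance in kb from the Ubx start (horizontal axis), with tagged (circles) and untagged (squares) anti-GFP RPM at each summit (vertical axis), and bars below for the spans of Ubx, abd-A and Abd-B. The tagged signal exceeds 6 RPM at 3 summits, and untagged signal stays between 0.0840 and 0.756 RPM throughout.

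The HOX genes outside this complex gave ratios over a similar range. The 6 summits of Antp, the HOX gene of the middle thorax, had ratios of 2.55 to 16.01 with a median of 7.56. Dfd, a HOX gene of the head, had 3.74 against 0.168 RPM and a ratio of 22.3 (8.595 to 82.5) at 234 bases from its start. The pair-rule gene ftz had 7.06 at one summit and 0.896 at another, and pb, which specifies mouthparts, had 1.73. Over the HOX list 15 of 25 summits, in 7 of the 12 genes written, had a ratio of 4 or more, with a median of 7.06 beside 2.73 over all summits.

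The other lists of developmental regulators had medians above that of all summits, with wide ranges within each. In 32 of 71 other homeobox genes 43 summits had a median ratio of 3.64 and 21 reached 4, from 0.926 at Lim3, a gene of motor neuron identity, to 15.95 at cad. In 7 of 8 T-box genes 12 summits had a median of 3.43 and 5 reached 4, from 1.42 at org-1 to 14.1 at Doc2, both regulators of mesoderm. The 3 summits of the GATA genes grn and srp had 34.7, 16.4 and 8.78. In 15 of 55 forkhead, zinc finger and other patterning genes 23 summit rows had a median of 3.22 and 8 reached 4, from 1.09 at CG9650, written in the list as Cph, and 1.55 at the Sox gene Sox21b to 14.3 at drm. The 231 summits of genes in no list had a median of 2.41 and 24.2% of them reached 4, against 47.9% of the 121 summits of listed genes. These shares stand beside 32.4% over all summits and were not tested. The lists and their members were chosen with earlier results of these data known, so the contrast is a description only.

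Polycomb genes themselves carried a few summits. Of 25 genes of the Polycomb system written, 5 had 9 summits with a median ratio of 3.56. The neighbouring paralogs ph-p and ph-d, which encode the Polyhomeotic subunit of Polycomb repressive complex 1, held 6 of them, at 9.46, 3.56 and 2.02 for ph-p and at 5.90, 4.55 and 3.57 for ph-d. The 2 genes are near-identical in part, so reads may have been split between them and their values are uncertain. Jarid2, an accessory subunit of Polycomb repressive complex 2, had 1.52, the DNA-binding factor gene cg had 1.33 and Scm, whose product binds Sfmbt, had 0.890. Sfmbt and pho had no summit of their own in the table. The remaining lists had 2 bound genes each. They were the Hedgehog receptor gene ptc (5.76) and the cell death gene hid (1.00) for signalling, dpr18, a cell surface protein gene (5.28), and elav, a neuronal RNA-binding protein gene (3.54), for neurons, and dhd (7.11) and the cyclin gene CycB3 (2.27) for ovary and egg activation.

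Within a gene, neighbouring summits did not always have alike ratios. A single summit was listed for 250 genes and several for 39. The BTB transcription factor gene chinmo had 4 summits at 7.32, 5.88, 3.22 and 3.82 in order along 2L, of which the first 2 lie upstream of its start and the others in introns. bi, a T-box gene of the eye and wing, had 6.58, 4.90, 3.18 and 2.06 in order of growing distance from its start on X. The 5 summits of the homeobox gene hth, all in introns and 17162 bases or more from its start, lay between 1.97 and 3.52. The counting intervals of the chinmo summits overlap, as do those of bi (3.60 to 13.4 at its highest ratio, 1.01 to 4.76 at its lowest). The order of ratios within these genes is therefore not resolved. Of 17 pairs of summits within 1000 bases of each other, 7 differed by more than 1 on the log2 scale, and the median difference was 0.72. These pairs include that of osa and Pxt, which are different genes. With interval bounds 5.14 times apart at the median, differences of this size can lie within counting error. Over 191 neighbouring pairs more than 100 kb apart the median difference was 1.08.

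Position relative to gene starts went with the ratio. At the 162 summits within 500 bases of an annotated gene start the median ratio was 2.41 (order-statistic interval 2.07 to 2.69), and at the other 190 it was 3.18 (2.73 to 3.52), a difference of −0.40 on the log2 scale. The lower quartiles were 1.49 near starts and 1.98 elsewhere, and the upper quartiles were 4.96 and 5.15. Ratios of 8 or more were 14.8% of summits near starts and 13.2% of the others. Tagged signal was close in the 2 classes, with medians of 0.871 and 0.886 RPM, and untagged signal was 0.378 RPM near starts against 0.315 RPM elsewhere. The lower median near starts was present on every chromosome arm, from 1.98 against 2.60 on 3L to 3.24 against 3.57 on X. By location, 92 summits in exons had a median of 2.27, 116 in introns 2.67 and 144 between genes 3.35. The medians were 3.22 at 500 to 2000 bases from a start (85 summits), 2.91 at 2000 to 10000 bases (68) and 3.18 beyond 10000 bases (37), where 33 summits had a ratio of 2 or more.

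Summits lay on the 5 large chromosome arms and none on chromosome 4. The median ratio was 3.46 on X (73 summits), 2.78 on 3R (96), 2.67 on 2R (63) and 2.39 on both 3L (63) and 2L (57). Tagged signal on X had a median of 1.04 RPM, above 0.672 to 0.932 RPM on the other arms, while untagged medians lay between 0.336 and 0.378 RPM on all 5. Ratios of 4 or more made up 42.5% of summits on X, 35.4% on 3R, 28.6% on 3L, 26.3% on 2L and 25.4% on 2R. 3R held 23 of the 49 ratios of 8 or more, and without the 25 summits of the HOX list, a split chosen after the values were seen, its median was 2.59. The first place of X depended on the summits used, since among those with 10 or more untagged steps 3R had the highest median. In windows of 1 Mb, the one from 16 to 17 Mb of 3R, which holds the bithorax complex, had the most ratios of 4 or more, 11 of 18 summits with a median of 7.28, and that from 8 to 9 Mb of X, which holds oc and Lim1, had 7 of 10.

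**Figure D4:**
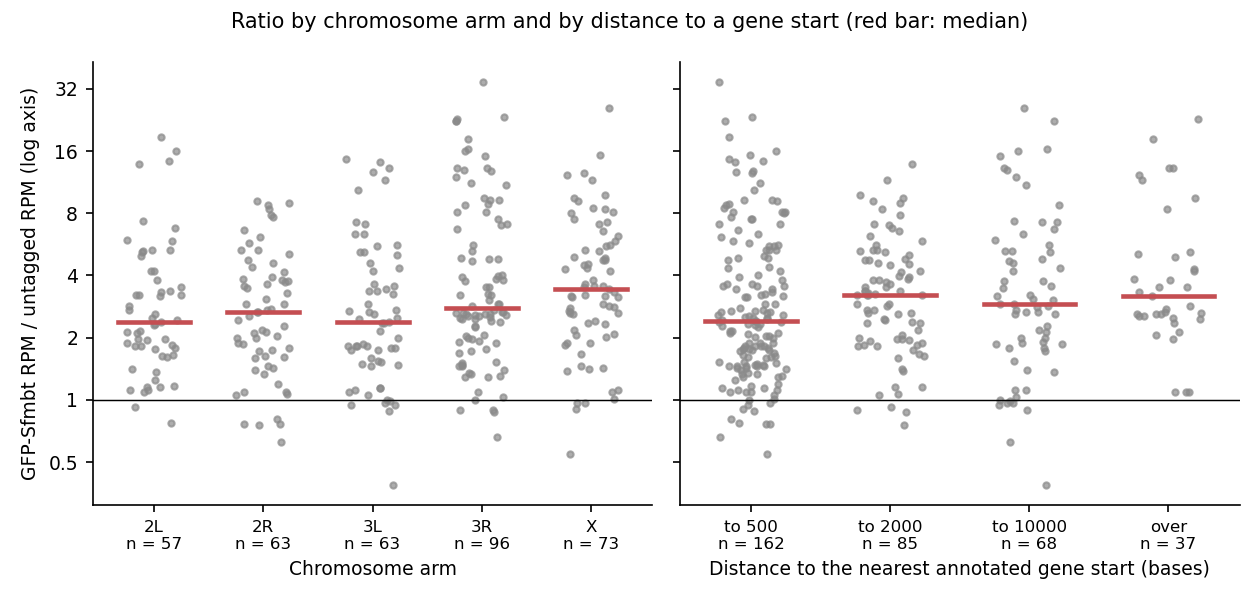
Ratio of GFP-Sfmbt to untagged RPM (vertical log axes) by chromosome arm, left, and by distance in bases to the nearest annotated gene start, right, with 1 point per summit and a bar at each median. The class within 500 bases has the lowest median by distance, 2.41, and X has the highest by arm, 3.46.

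Signal of the partner protein Pho was higher where the ratio was higher. Across the 352 summits the ratio and Pho RPM had a Spearman's rho of 0.507 and a Pearson's r of 0.581 on the log2 scale. The tagged signal itself had a rho of 0.678 with Pho, the untagged signal 0.0574. These are descriptions across summits, which share libraries and chromatin, and the authors listed the summits and ranked them with these same columns. In 4 equal classes of Pho RPM the median ratio was 2.12, 2.06, 2.65 and 6.48, so the higher ratios stood in the top class, where 59 of 88 summits reached a ratio of 4 against 15, 16 and 24 of 88 in the others. Without the 10 highest Pho values the rho was 0.466. Exceptions stood at both ends: Sema1b had 7.53 RPM of Pho, within the top class, and a ratio of 0.764, the only one of that class under 2. In the lowest class of Pho, 3 summits had ratios above 8, at CG14814 (15.3), ben (11.6) and lds (9.46), and each rests on 2 untagged steps or fewer. These 4 genes were chosen after their values were seen.

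**Figure D5:**
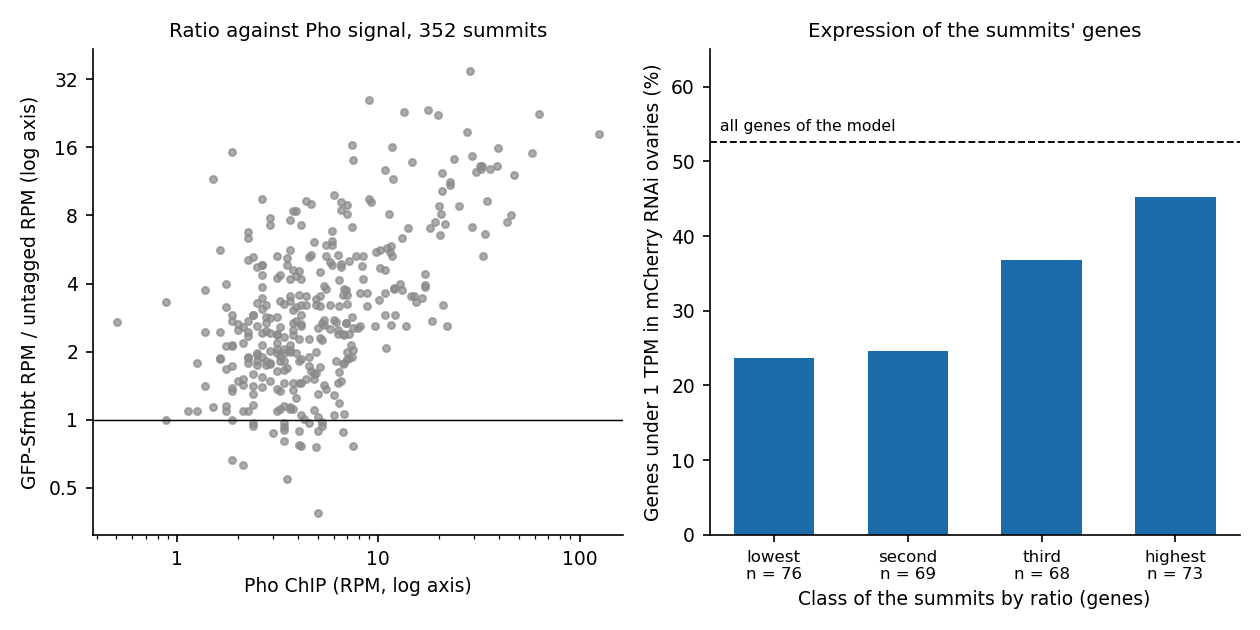
Left, ratio of GFP-Sfmbt to untagged RPM against Pho RPM for 352 summits (both log axes). Right, the share of genes under 1 TPM in mCherry RNAi ovaries by class of the gene's highest ratio, with a dashed line at 52.6% for all genes. The top class of Pho reaches a median ratio of 6.48, and the share of genes under 1 TPM runs from 23.7% in the lowest class to 45.2% in the highest.

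Genes with high ratios were more often close to silent in the ovary than genes with low ratios. Their share was still below that of all gene IDs. Summits were divided into 4 equal classes by ratio, each gene was placed by its highest summit, and its level was computed as TPM from the mCherry RNAi counts. Of 73 genes in the highest class 33 (45.2%) were under 1 TPM and the median was 1.91 TPM, while in the lowest class 23.7% of 76 genes were under 1 TPM and the median was 39.2 TPM. The classes between had 24.6% and 36.8%. Over all 17768 gene IDs 52.6% were under 1 TPM and the median was 0.598 TPM. Counted by summit, the median ratio was 3.52 at 134 summits of genes under 1 TPM, 2.91 at 1 to 10 TPM, 2.36 at 10 to 100 TPM and 2.07 at 55 summits of genes at 100 TPM or more. Position moved with this too: among genes whose highest summit lay near a start, the share under 1 TPM was 17.3% in the lowest class and 48.6% in the highest, and among the others it was 37.5% and 42.1%. The part of position in the relation was not tested.

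The RNA comparison asked whether the genes with the highest ratios respond when germ cells lose Sfmbt. These libraries held 34057506 to 51297961 counted fragments each. Ovary genes were present in mCherry RNAi: the germ cell genes vas, osk and aub were at 51.8 to 140 TPM, and the follicle cell genes tj, Vm26Aa, Vm32E and Cp36 at 56.1 to 12050 TPM. Sfmbt itself had 43.8, 43.8 and 36.7 CPM (counts normalised for library size with TMM factors) in the Sfmbt RNAi libraries and 146.1, 122.4 and 123.2 CPM in the mCherry RNAi libraries, which do not overlap (log2 fold change −1.66 ± 0.11 with its SE, edgeR adjusted p = 0.000119). Transcripts of pho fell by 0.75 ± 0.11 SE on the log2 scale (edgeR adjusted p = 0.00271).

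The share of genes that changed was close to the background at both ends of the ratio and lower in one class between them. By the quasi-likelihood test of edgeR at an adjusted p of 0.05, 20 of 54 tested genes in the highest class (37.0%) were called, of which 9 rose and 11 fell with Sfmbt RNAi. Of 63 in the lowest class 23 (36.5%) passed, 11 higher and 12 lower. In the second class 23 of 58 (39.7%) passed, and in the third class 9 of 46 (19.6%), 7 higher and 2 lower. The differences between classes were not tested. Over all 9667 genes tested 34.7% passed, 15.2% higher and 19.4% lower. The tested genes exclude 19 genes of the highest class and 13 of the lowest, whose counts lay below the filter. Without mCherry RNAi replicate 2 the counts were 13 and 11, and without mCherry RNAi replicate 3 they were 11 and 15, as the number called over all genes went from 3350 to 1756 and 1931.

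Among the genes that rose in the highest class, dpr18 had 32.02, 30.6 and 32.6 CPM in the Sfmbt RNAi libraries and 0.333, 0.565 and 0.621 CPM in the mCherry RNAi libraries. chinmo had 36.0, 31.0 and 29.6 CPM against 0.977, 1.26 and 1.30 CPM. In both genes every Sfmbt RNAi library lay far above every control (log2 fold changes 5.98 ± 0.23 and 4.77 ± 0.16 SE, edgeR adjusted p = 8.75e-06 and 5.3e-06). CG43337 had 0.266, 0.467 and 0.503 CPM against 0.0416, 0 and 0.0296 CPM, a rise from 3 to 54 fragments (edgeR adjusted p = 0.00532) and a ratio of rates of 21.3 (exact 95% counting interval 6.91 to 106). These groups do not overlap either. The genes were chosen for large called fold changes, where such separation is likely, and it was not counted over all tested genes.

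Among those that fell, dhd had 908, 968 and 999 CPM in Sfmbt RNAi against 2467, 2768 and 3188 CPM in mCherry RNAi (log2 fold change −1.55 ± 0.13 with its SE, edgeR adjusted p = 0.00027). The chromokinesin gene nod, which acts in female meiosis, had 44.8, 50.6 and 52.6 CPM against 105.7, 103.9 and 112.4 CPM (−1.12 ± 0.08 SE, edgeR adjusted p = 0.00018). srp had 43.6, 81.6 and 48.8 CPM against 97.4, 140.4 and 157 CPM (−1.18 ± 0.30 SE, edgeR adjusted p = 0.0290). The groups do not overlap in any of the 3 genes, which were chosen for their called falls. The call of srp was lost when either Sfmbt RNAi replicate 1 or 3 or mCherry RNAi replicate 2 or 3 was left out, and with no count filter (edgeR adjusted p = 0.0537 to 0.118), and was kept under the other alternatives (5.6e-05 to 0.0338).

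Genes of the lowest class changed in both directions as well. CG9650, a zinc finger gene also named Cph, had 39.2, 29.4 and 37.4 CPM in Sfmbt RNAi against 3.49, 3.65 and 3.76 CPM in mCherry RNAi (log2 fold change 3.28 ± 0.14 with its SE, edgeR adjusted p = 1.12e-05), at a ChIP ratio of 1.09. The cell death gene hid had 35.1, 39.0 and 47.8 CPM against 7.96, 7.43 and 8.67 CPM (2.34 ± 0.13 SE, edgeR adjusted p = 6.15e-05). Its ChIP ratio was 1.00 (counting interval 0.504 to 2.13). Neither gene's groups overlap, so large rises also occurred at genes whose ChIP ratio was near 1. Both genes were chosen for their fold changes. As the hid interval reaches 2.13, a ratio near 1 does not show that binding is absent. CG14785 had 3.04, 2.80 and 3.26 CPM against 1.64, 1.65 and 1.30 CPM (0.98 ± 0.25 SE, edgeR adjusted p = 0.0229). This call was lost when Sfmbt RNAi replicate 2 or mCherry RNAi replicate 2 or 3 was left out (edgeR adjusted p = 0.0592, 0.0785 and 0.0920, respectively), and in the fit blocked on replicate number (0.0665). It was kept under the other alternatives (0.00226 to 0.0441).

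The 3 largest falls in the lowest class were at a cell cycle regulator, a licensing inhibitor and a nuclear import factor. The retinoblastoma family gene Rbf2 had 34.5, 44.4 and 46.2 CPM in Sfmbt RNAi against 75.9, 72.5 and 77.1 CPM in mCherry RNAi (log2 fold change −0.85 ± 0.11 with its SE, edgeR adjusted p = 0.00201). geminin had 72.4, 87.7 and 89.3 CPM against 151.1, 144.5 and 147.9 CPM (−0.83 ± 0.09 SE, edgeR adjusted p = 0.000986). Pen, which encodes an importin alpha of the germ line, had 741, 689 and 750 CPM against 1256, 1079 and 1163 CPM (−0.68 ± 0.10 SE, edgeR adjusted p = 0.00245). In all 3 genes, chosen for their called falls, every Sfmbt RNAi library lay below every control. That also held for Act5C of the same class, which was not called (edgeR adjusted p = 0.0570).

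The bound HOX genes, whose 25 summits had a median ratio of 7.06, gave no call. Of 7 HOX-list genes with a summit 4 were tested and 0 passed, beside 34.7% over all tested genes. With 4 genes tested, this count says little about the HOX genes as a set. Ubx, abd-A, Abd-B and Antp had log2 fold changes of 0.05 ± 0.52, 0.20 ± 0.36, −0.20 ± 0.41 and −0.22 ± 0.44 SE (edgeR adjusted p = 0.953, 0.707, 0.743 and 0.733), and their 2 groups of libraries overlap. abd-A had the highest level of the 4, with 11.7, 8.80 and 4.41 CPM against 5.49, 8.17 and 7.99 CPM. With these standard errors, changes of the sizes given were not detectable. Dfd, grn, lbe, oc and vg, all among the strongest ratios, lay below the count filter. Of the other genes with the strongest ratios, unc-4 rose from a low level (2.48 ± 0.46 SE, edgeR adjusted p = 0.00699), and cad and corto fell (−0.32 ± 0.10 and −0.34 ± 0.09 SE, edgeR adjusted p = 0.0467 and 0.0244).

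In the Polycomb list 24 of 25 genes were matched and all 24 were tested: 5 rose, 3 fell, among them the RNAi target itself, and 16 did not pass, with a median log2 fold change of 0.05 beside −0.04 over all tested genes. Both directions together stand beside the 34.7% called over all tested genes, of which 15.2% rose and 19.4% fell. Of the 5 with a summit only ph-p rose, with 36.4, 32.9 and 36.1 CPM against 6.63, 7.498 and 7.51 CPM (log2 fold change 2.28 ± 0.10 with its SE, edgeR adjusted p = 1.2e-05). Its paralog ph-d was at 0.21 on the log2 scale (edgeR adjusted p = 0.0598), and Scm, cg and Jarid2 had −0.07, 0.10 and 0.06. Of 17 tested members of the other homeobox list 4 rose and 2 fell, a share near the 34.7% of all tested genes. Of 3 tested T-box genes 0 passed. In the neuronal surface and channel list 7 of 10 tested genes rose and 1 fell. In the ovary and egg activation list 4 of 13 rose and 6 fell. Of 22 tested patterning genes 7 rose and 1 fell, of 16 signalling genes 2 rose, and of 4 GATA genes 1 fell. The lists were written with earlier results of these data known, and differences between lists were not tested.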

How the data were processed

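The deposited peak table holds the authors' RPM, with 1 column each for GFP-Sfmbt, untagged and Pho chromatin. The peak caller, the window behind an RPM value, how summits were selected and whether replicates were pooled or averaged are steps not given in the sources used here. Per the submitters' processing notes Bowtie2 and deepTools 3.5.0 were used with build BDGP6. RPM columns were checked for steps: 1000000 divided by the step was a whole number within 0.001 in each column (65448012 for GFP-Sfmbt and 23816448 for untagged), and these serve as the depth if 1 step is 1 read. The authors' rank score, a column of the deposited table, served to take the stronger 176 summits. Positions are 1-based, and start sites were taken from the outermost exon ends of the gene model that the count table carries (BDGP6.28, Ensembl release 101). For 4 summits the assigned gene was not matched to that model.

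Gene counts were made by the authors with featureCounts 1.6.3, per the file headers, from reads aligned with STAR 2.7.2a, per the submitters' processing notes. The 6 count columns carry a letter and a number. C was read as control and A, by elimination, as Sfmbt RNAi, with numbers as replicate numbers. The authors' deposited log2 fold change and adjusted p-value columns were used for a check only: over 221 genes Pearson's r with the fold changes computed here was 0.993, and all 93 genes the authors' table called had the same sign. The authors' deposited TPM served the same purpose (r of 0.991 on the log2 scale over 270 genes).

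All genes were fitted in R 4.3.3 with edgeR 4.0.16 (genes kept by filterByExpr at a minimum count of 10, TMM factors, robust quasi-likelihood F-test, group as the only term) with Benjamini-Hochberg adjustment at 0.05. p-values judge the difference between Sfmbt RNAi and mCherry RNAi against the spread between these libraries. Ratios, intervals and correlations were computed with Python 3.11.15 and scipy 1.17.1, and figures with matplotlib 3.10.9. A value of 0 takes 3 steps as its floor. The main edgeR fit, the ratio intervals and the recovery of the step were tested on simulated data, and the alternative fits were not.

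Summits were named by rule: the 10 highest and 10 lowest ratios on 10 or more untagged steps, the 10 largest differences, those under 3 untagged steps among the 10 highest ratios, the extremes of each list and genes with 4 or more summits. RNA values are given for the 3 largest rises and falls called in the highest and lowest of 4 equal classes by ratio. List members were matched to summits by symbol or gene ID; symbols alone, as first written, miss CG9650 (Cph) and give 14 genes and 22 summit rows for its list. These rules, the gene lists and the members were chosen with earlier results of these data known. DESeq2 1.42.0, RLE scaling, no filter, a replicate block and leaving out each library were alternatives for RNA.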

Additional observations from a re-analysis of the deposited data

How the results depend on the processing

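The values of the ratio depended on how low untagged values were treated. The difference between near-start summits and the rest, the correlation with Pho and the median difference in RPM kept their sign under the alternatives run for them. The median ratio of 2.73 was 2.44 with 1 step added to both values, 2.31 with 0.1 RPM added, 1.82 at the 133 summits with 10 or more untagged steps and 4.17 at the stronger 176 summits by the authors' rank. With 10 or more untagged steps, a filter on the denominator itself, 19 of 133 summits reached a ratio of 4. There the median difference was 0.398 RPM and the Spearman's rho with Pho was 0.631. The median difference of the stronger summits was 1.02 RPM. Over all 352 summits Pearson's r with Pho on the log2 scale was 0.581, beside a Spearman's rho of 0.507. The lower median near gene starts had values of −0.20 to −0.40 on the log2 scale over all alternatives, and counting the repeated twi summit once, an alternative chosen after seeing the data, left the counts at ratios of 4 and 8 as they were and gave 237 in place of 238 summits at a ratio of 2. X had the highest median except among summits with 10 or more untagged steps and among the stronger summits, where 3R had it. All 136 alternatives for the ratios of named summits stayed within their counting intervals. These alternatives added 1 step or 0.1 RPM, and the intervals are wide beside such shifts, so this outcome says little about stability. The CG16989 ratio, for example, went from 25.8 to 8.34 with 0.1 RPM added, within an interval of 4.49 to 1035.

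With the replicate number as a block 19 genes of the highest ratio class and 19 of the lowest were called, against 20 and 23 without. Same-numbered libraries had correlations of 0.432, 0.305 and 0.0729 in their deviations from the group means, and libraries 2 and 3 of Sfmbt RNAi correlated best with another number, so the numbers were not taken to pair the libraries. Leaving out 1 library gave 11 to 20 calls in the highest class and 11 to 25 in the lowest. The balance of rises and falls among the calls also varied. In the highest class it went from 9 and 11 to 11 and 9 with RLE scaling and 12 and 11 with DESeq2. In the lowest class it went from 11 and 12 to 16 and 12 with DESeq2, and to 2 and 9 without mCherry RNAi replicate 2. Over the alternatives for the named genes 131 fits kept the call and 9 ended it, all at srp or CG14785. With RLE scaling 1645 genes were higher and 1654 lower over the whole table, against 1470 and 1880. No paired analysis was possible for the ChIP comparison because each group has 1 column. The planned comparison of motifs at summits was not run, as no genome of the build was used here.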

Other observations

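Bound genes in the middle classes of the ratio included genes with large transcript rises at modest tagged signal. The 4 with the largest called fold changes are given, chosen after their values were seen. CG32814, with 90.9, 85.9 and 101.6 CPM in Sfmbt RNAi against 1.43, 1.41 and 1.15 CPM in mCherry RNAi, rose by 6.11 ± 0.12 SE on the log2 scale (edgeR adjusted p = 5.52e-07) at a ChIP ratio of 1.89 (0.795 against 0.420 RPM). The homeobox gene Gsc had 9.43, 9.87 and 11.9 CPM against 0.0208, 0.0435 and 0.0296 CPM (edgeR adjusted p = 1.08e-05) at a ChIP ratio of 2.44, with 1.38 RPM of Pho. cona, which encodes a protein of the synaptonemal complex, had 9.75, 8.49 and 11.5 CPM against 0.749, 1.17 and 0.739 CPM (edgeR adjusted p = 0.000269) at a ChIP ratio of 2.39. Appl, the fly relative of the amyloid precursor protein gene, had 18.5, 17.2 and 20.1 CPM against 2.85, 2.65 and 2.45 CPM (edgeR adjusted p = 3.3e-05) at a ChIP ratio of 2.37. In all 4 genes every Sfmbt RNAi library lay above every control, which a choice by fold change makes likely.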
